A study of Mus musculus with 4 samples.

Results

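The genes described here are 10 genes of Wnt and R-spondin signalling and of liver zonation: Rspo1, Rspo3, Lgr4, Lgr5, Axin2, Tbx3, Znrf3, Ctnnb1, Glul and Rhbg. They were taken by name, as every non-control probe whose gene name on the array was 1 of the 10, which gave 20 probes of 41174 and 10 genes of 19713. They were chosen by their differences between LB1 and control in these same arrays, above all that of Rspo1, to set the ligand beside pericentral Wnt target genes. Their differences between the groups are therefore given as a description, with no p-value.

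The series concerns a Lactobacillus isolate from ostrich and its effects on weight, gut bacteria and metabolism in mice. Liver RNA of female BALBc mice was measured on Agilent arrays with 1 dye, 1 array per mouse. There were 2 mice of the treatment group LB1 and 2 control mice, and the livers were taken 20 days after inoculation. What the name LB1 means, what the control mice received and how old the mice were are not given in the labels. The LB1 samples are called stuff mouse in their source names.

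Wnt proteins bind Frizzled and Lrp receptors on the cell surface and keep beta-catenin, the product of Ctnnb1, from being degraded, so that it can turn on target genes in the nucleus. R-spondins bind Lgr receptors and remove the ubiquitin ligases Znrf3 and Rnf43 from the membrane, which leaves more Wnt receptor there. In the liver this pathway is most active in hepatocytes around the central vein, where Wnt and R-spondin ligands come mainly from endothelial cells of the vein and from stellate cells, and it maintains pericentral genes such as glutamine synthetase. Genes of urea and glucose synthesis are higher around the portal vein.

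Several of the 10 genes had more than 1 probe, and the probes of Glul and of Ctnnb1 did not give the same direction. Their sequences are shown for that reason, together with that of the only Rspo1 probe. Each probe has 60 bases. Glul probe 3, which lies in the protein-coding part, is given whole and the first 30 bases are given for the others, all 5′ to 3′ in the sense of the transcript and in lower case. Probes of a gene are numbered as in the lines that follow, and Glul probe 2 and Ctnnb1 probe 3 were designed to cDNAs other than the RefSeq transcript of the gene.
Rspo1: ccgtggtacacgtcacggatgacctgactt
Glul probe 1: gtaactgccaggcagcgcttataaatcaac
Glul probe 2: gctggtttcccctttagaaataacagctct
Glul probe 3: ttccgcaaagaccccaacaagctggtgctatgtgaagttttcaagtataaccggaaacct
Ctnnb1 probe 1: ttctaagaaccgagtaatggtgtagaacac
Ctnnb1 probe 2: gaaggagatgttcatgtgtggaagtttctc
Ctnnb1 probe 3: aagggacatggagtgtaatgtactgttgtg

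Positions are those of the array files, which do not name their genome build. All 20 probes lay on the chromosome of their gene in GRCm38.p6 and 0 of 20 inside its span there, so the files use another build and no exon or UTR annotation is given. The Rspo1 probe is at chr4:124686270-124686329. The Glul probes are at chr1:155756750-155756809, chr1:155755785-155755844 and chr1:155751765-155751824 in the order of their numbers, with probe 1 nearest the 3′ end. The Ctnnb1 probes are at chr9:120869274-120869333, chr9:120868778-120868837 and chr9:120865275-120865334, again with probe 1 nearest the 3′ end.

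A level here is the log2 of the processed signal minus the 75th percentile of the same array, and a difference is LB1 minus control on that scale. The arrays differed in brightness: the 75th percentile was 147 and 80.8 on the LB1 arrays, against 411 and 415 on the control arrays. A probe was tested if it stood well above background on both arrays of a group, which 22974 probes did, and it passed the threshold at an adjusted p under 0.05 in limma. In all 4409 probes (19.2%) passed as higher and 3030 (13.2%) as lower in LB1 livers, so that 32.4% passed in either direction. Of the calls 59.3% were higher, a share that was 71.0% after normexp background correction, 38.2% after quantile normalization, 18.9% when arrays were scaled by their median and 74.0% in the deposited rounded table. The median difference of all tested probes was 0.16, and under those alternatives 0.44, -0.09, -0.47 and 0.44. Probes that were not above background on any array, 15154 of them, had a median difference of 1.88 in this scaling and of 0.06 after quantile normalization. The hepatocyte genes were present: 15 of the 15 on the array were tested, and 11 of them were saturated on 1 or more arrays. For that reason no differences are given for them, and only counts of calls appear below.

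Of the 20 probes of the 10 genes, 15 were tested, covering 9 genes. Past the threshold, 3 probes were higher in LB1 livers (Rspo1, Tbx3 probe 1 and Glul probe 2) and 3 were lower (Glul probe 3 and Ctnnb1 probes 1 and 2), and 9 did not pass. Those counts stand beside the 32.4% of all tested probes, and nothing is read from them. The LB1 and control arrays did not overlap for 10 of the 15 probes, and for 76.1% of all tested probes with a value on every array. By the methods' t-test with 2-fold only Tbx3 probe 1 passed as higher and Ctnnb1 probe 2 and Glul probe 3 as lower. Without control replicate 2 none of the 15 passed, and without control replicate 1 only Rspo1 did. Each slide held the LB1 and the control array of 1 replicate number. With the slide as a block, Ctnnb1 probe 1 and Glul probe 2 no longer passed, whereas Lgr4 probe 3 passed as higher and Axin2 as lower.

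**Figure D1:**
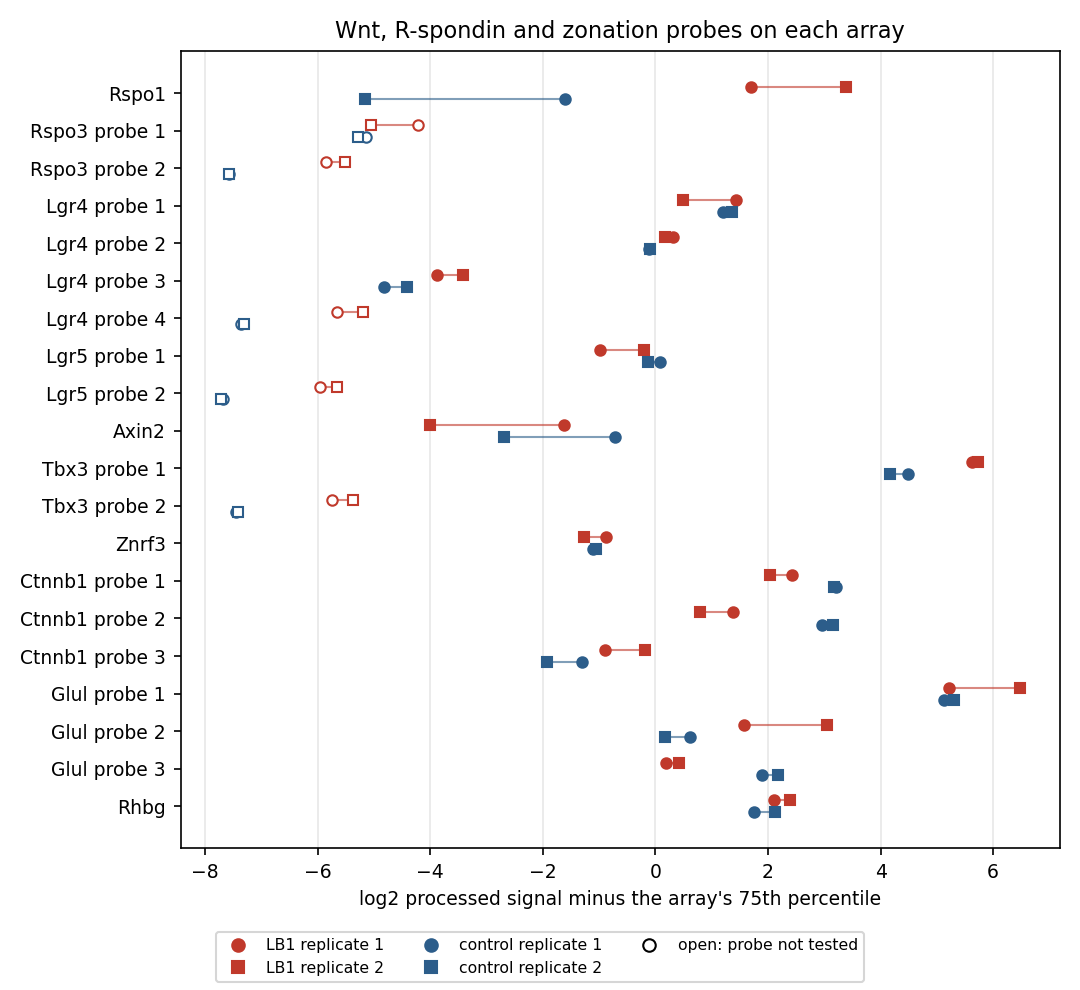
The level of each of the 20 probes on each array (log2 processed signal minus the 75th percentile of that array), with LB1 arrays in red above control arrays in blue, circles for replicate 1 and squares for replicate 2. A line joins the arrays of a group, and open symbols mark probes that were not tested. The Rspo1 groups lie farthest apart, and the LB1 arrays lie to the right for Glul probe 2 and to the left for Glul probe 3.

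Among the ligands, Rspo1 showed the widest gap of the 15 tested probes. Its level was 1.70 and 3.39 in LB1 livers, against -1.61 and -5.16 in control livers. The processed signals before scaling were 477 and 848 in LB1 livers and 135 and 11.6 in control livers, and the signal of control replicate 2 was not well above background. Both LB1 livers were thus above both control livers, and the control livers differed from each other by more than the LB1 livers did. The mean level was 2.55 ± 1.20 in LB1 livers and -3.39 ± 2.51 in control livers (SD, n = 2 each), a difference of 5.93 with an SE of 1.26. Within slide 1 it was 3.31 and within slide 2 it was 8.56. The difference was 3.74 after normexp correction, 5.54 after quantile normalization, 5.30 with median scaling and 4.29 in the rounded table. These come from the arrays on which the gene was chosen and are no support for it. Rspo1 did not pass without LB1 replicate 2 (5.09), without control replicate 2 (4.15) or by the methods' t-test with 2-fold. It was tested through its LB1 signal, and a filter on all 4 arrays left it out.

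Markers of mesothelium, the lining of the body cavity and of the organs in it, moved with Rspo1. Of the 17 marker genes 11 were tested, and 10 of them were higher in LB1 livers and 0 lower. Some entered the test only through their LB1 signal: with a filter on all 4 arrays 6 were tested, and those 6 were higher. Upk1b, Wt1, Bnc1, Cdh3, Tm4sf5 and Pkhd1l1 were not tested. The summed signal of the tested markers was 273 and 368 times the 75th percentile in LB1 livers, against 118 and 132 times in control livers, most of it from Krt18, which hepatocytes also express. Without Krt18 the sum was 12.2 and 38.6 in LB1 livers, against 1.71 and 0.519 in control livers, so it was highest in LB1 replicate 2 and lowest in control replicate 2, as for Rspo1. The keratin gene Krt7 differed by 4.69 (SE 0.80, limma, Benjamini-Hochberg adjusted p = 0.023). The mucin gene Muc16 differed by 5.30 (SE 0.92). Its probe was not well above background on all 4 arrays, so no p-value is given for it. Krt7 and Krt19 are also on the list of cholangiocyte markers, so they do not mark mesothelium alone. Lrrn4 was not well above background on either control array, so it was tested only through its LB1 signal. It was at least 8.13-fold higher in LB1 livers, and no p-value is given for it. The number of these markers past the threshold was 5 without LB1 replicate 2, 6 without control replicate 1 and 0 without control replicate 2, and it was 7 after quantile normalization and 1 by the methods' t-test. The part of this tissue in the Rspo1 difference was not tested. In whole liver, a change in the number of cells of a type and a change in RNA per cell cannot be told apart.

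Among 13419 other genes, the 5 whose levels on the 4 arrays lay nearest to those of Rspo1, each gene centred on its own mean, were Msln, Myl7, Nkain4, Cybrd1 and Usp29. Msln, the mesothelin gene, was the nearest at a Euclidean distance of 0.22, with levels of 2.65 and 4.37 in LB1 livers and -0.89 and -4.17 in control livers. The others lay at 0.63 (Myl7, an atrial myosin light chain), 0.81 (Nkain4), 0.98 (Cybrd1, an iron-regulated reductase) and 1.0 (Usp29, not well above background on either control array). Like Rspo1, Nkain4 and Cybrd1 cleared background on only 1 control array. The distances and their order rest on 4 arrays and in part on signals at background, and describe likeness of pattern alone.

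Rspo3, the R-spondin that in mouse liver comes from the central vein and stellate cells, could not be followed. Neither of its 2 probes was well above background on any array. Probe 1 gave processed signals of 7.9 and 2.4 in LB1 livers and 11.6 and 10.6 in control livers, and probe 2 gave 2.5 and 1.8 in LB1 livers and 2.2 and 2.2 in control livers. Both sets of signals lie at background, so no fold is given.

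Lgr4 and Lgr5 encode R-spondin receptors, Lgr4 being the broadly expressed one. Lgr4 probe 1 stood at 1.44 and 0.50 in LB1 livers, against 1.20 and 1.37 in control livers, and the groups overlapped (difference -0.31, SE 0.37). Lgr4 probe 2 stood at 0.31 and 0.17 in LB1 livers, against -0.12 and -0.10 in control livers, a difference of 0.35 with an SE of 0.21. Neither passed, and their differences had opposite signs. Lgr4 probe 3 did not clear background on the LB1 arrays, and its difference of 0.96 is smaller than the 1.88 of probes at background. Lgr4 probe 4 was at background on all 4 arrays.

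Lgr5 probe 1 stood at -0.98 and -0.20 in LB1 livers, against 0.09 and -0.12 in control livers. The groups did not overlap, but LB1 replicate 2 lay close to control replicate 2, and the difference of -0.57 (SE 0.33) did not pass. It was -1.07 within slide 1 and -0.08 within slide 2. With median scaling it was -1.21 and passed. The second Lgr5 probe was at background.

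Axin2, a negative regulator of beta-catenin that is itself a widely used Wnt target gene, did not separate the groups. Its level was -1.63 and -3.99 in LB1 livers, against -0.71 and -2.69 in control livers. In both groups replicate 1 was the higher, and the spread within each group (SD 1.67 in LB1 livers and 1.40 in control livers) was larger than the difference of -1.12 (SE 1.0). Of the LB1 arrays only replicate 1 was well above background. Within the slides the differences were -0.92 and -1.31, both negative. The sign depended on the background correction: the difference was 0.29 after normexp correction and 0.09 in the rounded table, and it was -1.75 and past the threshold with median scaling.

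Tbx3, which encodes a T-box transcription factor found in pericentral hepatocytes and known as a Wnt target in mouse liver, was higher in LB1 livers. Probe 1 stood at 5.62 and 5.73 in LB1 livers, against 4.48 and 4.17 in control livers. Replicates lay close together in both groups, with means of 5.67 ± 0.08 in LB1 livers and 4.32 ± 0.22 in control livers (SD, n = 2 each). This made a difference of 1.35 (SE 0.23), 1.14 within slide 1 and 1.56 within slide 2. It was 0.78 after normexp correction, 1.02 after quantile normalization and 1.03 in the rounded table, each past the threshold, and 0.71 with median scaling, where it did not pass. The second Tbx3 probe was at background.

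Znrf3, the membrane ubiquitin ligase that R-spondins act on, did not differ between groups beyond its spread. It stood at -0.88 and -1.27 in LB1 livers, against -1.12 and -1.06 in control livers, a difference of 0.01 with an SE of 0.24. The control values lay between the LB1 values.

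For Ctnnb1, probes 1 and 2 were lower in LB1 livers. Probe 1 stood at 2.43 and 2.04 in LB1 livers, against 3.21 and 3.18 in control livers (difference -0.96, SE 0.24). Probe 2, which lies 496 bases upstream and is the mean of 10 spots, stood at 1.38 and 0.79 in LB1 livers, against 2.96 and 3.15 in control livers (difference -1.97, SE 0.28). Both kept their direction and passed under normexp, quantile and median scaling and in the rounded table. Probe 3 had a difference of the other sign, at -0.90 and -0.19 in LB1 livers, against -1.30 and -1.92 in control livers (difference 1.06, SE 0.36). It did not pass there, after quantile normalization (0.95) or with median scaling (0.43), but passed as higher after normexp correction (1.04), in the rounded table (0.98), with the filter on all 4 arrays and without LB1 replicate 1. The 2 probes on the RefSeq transcript thus differed in size by 1.01, and probe 3 differed from both in sign.

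Glul encodes glutamine synthetase, the best known marker of the hepatocytes next to the central vein, and its 3 probes gave 3 different answers. Probe 1, the brightest, stood at 5.22 and 6.47 in LB1 livers, against 5.14 and 5.30 in control livers. The LB1 replicate 1 value lay between the control values, and the difference of 0.63 (SE 0.45) did not pass. Probe 2 stood at 1.57 and 3.05 in LB1 livers, against 0.61 and 0.17 in control livers, and was higher by 1.92 (SE 0.53). It did not pass after quantile normalization, where the difference was 1.87. Probe 3 stood at 0.18 and 0.41 in LB1 livers, against 1.90 and 2.18 in control livers, and was lower by a difference of -1.74 (SE 0.24). Its differences within the slides were -1.72 and -1.77, and it passed under each of the 4 other scalings, at -1.78 after normexp correction, -1.77 after quantile normalization, -2.38 with median scaling and -1.76 in the rounded table. No direction is therefore given for the gene.

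Probes that lie further from the 3′ end gave lower differences in many genes. In 4720 pairs of tested probes on the same one of 3838 RefSeq transcripts, the difference at the upstream probe minus that at the most 3′ probe had a median of -0.18, and the upstream one was lower in 57.5%. The median was -0.37 in 360 pairs that lay 250 to 500 bases apart and -0.02 in 1416 pairs over 5000 bases apart. Between the control arrays it was within 0.08 of 0 in each distance range, and between the LB1 arrays it reached -0.16, at 250 to 500 bases. Ctnnb1 probe 2 against probe 1 gave -1.01 and Glul probe 3 against probe 1, which are 4985 bases apart in the genome, gave -2.37. Both go the same way as the median and are larger. Lgr4 probes 2 and 3 against probe 1 gave 0.66 and 1.28, the opposite way. Of these, probe 3 did not clear background on the LB1 arrays. The part of probe position in the Ctnnb1 and Glul values was not tested.

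**Figure D2:**
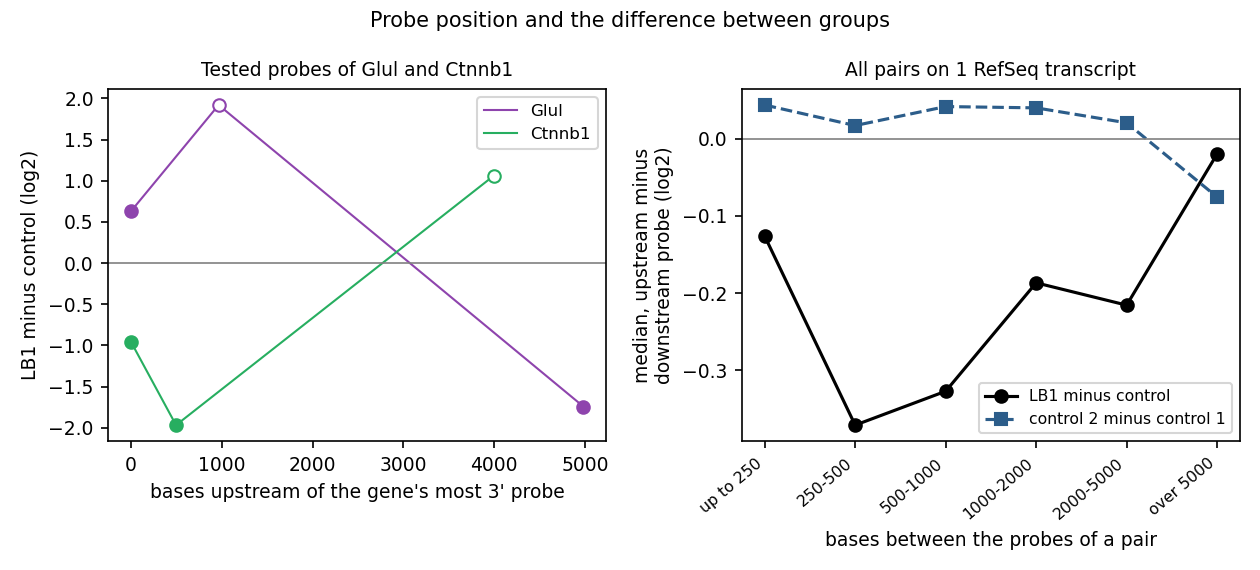
Left, the LB1 minus control difference (log2) of each tested Glul and Ctnnb1 probe against its genomic distance in bases from the most 3′ probe of the gene, with open symbols for probes on other cDNAs. Right, the median over all probe pairs on 1 RefSeq transcript of the difference at the upstream minus that at the downstream probe (log2), by the bases between them, for LB1 minus control and for control replicate 2 minus control replicate 1. The Glul values run from 1.92 at probe 2 to -1.74 at probe 3, and the LB1 minus control medians lie below 0 in all 6 distance ranges.

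Rhbg, an ammonium transporter of pericentral hepatocytes, did not pass. It stood at 2.10 and 2.39 in LB1 livers, against 1.75 and 2.13 in control livers, and the groups overlapped (difference 0.31, SE 0.26). After normexp correction the difference was -0.16 and with median scaling it was -0.33.

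**Figure D3:**
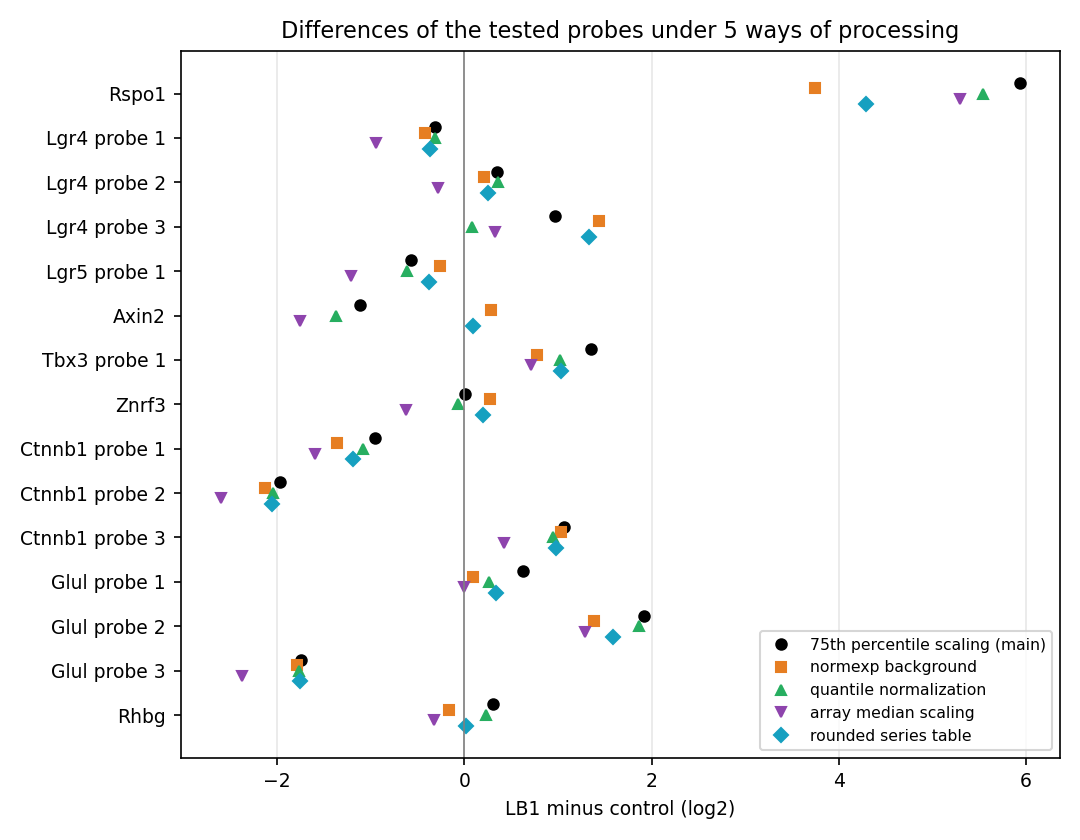
LB1 minus control difference (log2) of the 15 tested probes with the 75th percentile scaling and with 4 other ways of processing. Each symbol is 1 way of processing. Rspo1, Tbx3 probe 1 and Glul probe 2 lie to the right of 0 in all 5, and Ctnnb1 probes 1 and 2 and Glul probe 3 to the left in all 5. Axin2, Rhbg, Znrf3, Lgr4 probe 2 and Glul probe 1 fall on both sides.

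The other genes of the pathway were taken from lists by role, with 1 probe per gene, the brightest. Over all 13439 tested genes 20.6% were higher and 10.4% lower, with a median difference of 0.25. Of 19 Wnt ligand genes 9 were tested, and 3 were higher, 0 lower and 6 did not pass, with a list median of 1.0. The number higher was 7 after normexp correction, 8 in the rounded table, 2 with median scaling and 1 after quantile normalization. Wnt6 differed by 1.68 (limma, adjusted p = 0.022) and Wnt4 by 1.55 (limma, adjusted p = 0.032). Wnt7b differed by 1.83, but its probe was not well above background on all 4 arrays, so no p-value is given for it. Wnt4 did not pass after quantile normalization or with median scaling, and Wnt7b did not after quantile normalization. These are dim probes whose differences are no larger than the 1.88 of probes at background. With the filter on all 4 arrays 6 ligand genes were tested and 3 were higher. The largest difference there was the 1.68 of Wnt6, and the Wnt7b probe was left out. Wnt2 and Wnt9b, which in mouse liver come from central vein and sinusoidal endothelium, did not pass and were named after their values were seen, at 1.0 (limma, adjusted p = 0.070) and 0.26 (limma, adjusted p = 0.71).

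Of 10 tested Wnt receptor genes 4 were higher, 1 was lower and 5 did not pass, with a list median of 0.77. With median scaling 1 was higher and 2 were lower. The Frizzled receptor Fzd5 stood at -1.48 and -0.69 in LB1 livers, against -3.06 and -3.24 in control livers (difference 2.07, limma, adjusted p = 0.022). Ror2 differed by 1.44 (limma, adjusted p = 0.025) and Fzd4 by 1.29 (limma, adjusted p = 0.030). Fzd8 was the lower one, at -1.16 and -1.83 in LB1 livers, against -0.29 and 0.06 in control livers (difference -1.38, limma, adjusted p = 0.033). Ror2 and Fzd4 did not pass with median scaling.

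Of 9 tested secreted or membrane inhibitors of Wnt 3 were higher, 1 was lower and 5 did not pass, with a list median of 0.47. After normexp correction, and also in the rounded table, 7 were higher and 0 lower, and after quantile normalization 1 was higher and 2 were lower. Sost differed by 1.60 (limma, adjusted p = 0.024), Draxin by 1.02 (limma, adjusted p = 0.043) and Kremen1 by 1.80 (limma, adjusted p = 0.046). Sost did not pass with median scaling, Kremen1 did not after quantile normalization, and Draxin did not in either. Frzb was called lower but did not clear background on the LB1 arrays, so no p-value is given for it. Its difference was 1.08 and passed as higher after normexp correction, so it has no settled direction.

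Of 20 tested genes of signal transduction 6 were higher, 2 were lower and 12 did not pass, with a list median of 0.48. The balance turned with the scaling: 11 were higher and 3 lower after normexp correction, 3 higher and 4 lower after quantile normalization, and 2 higher and 6 lower with median scaling. The casein kinase gene Csnk1e differed by 1.86 (limma, adjusted p = 0.023) and Tcf7l2, the main TCF partner of beta-catenin in hepatocytes, by 1.30 (limma, adjusted p = 0.025). Tcf7l2 did not pass with median scaling. The lower genes were Tnks, a tankyrase that marks Axin for degradation, at -1.07 (limma, adjusted p = 0.033), and Axin1, a scaffold of the beta-catenin destruction complex, at -1.05 (limma, adjusted p = 0.034). Axin1 did not pass after normexp correction or in the rounded table.

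Of the other Wnt target genes (Nkd1, Tcf7, Sp5, Myc, Rnf43, Notum, Ccnd1 and Lef1) 7 of 8 were tested. In limma 0 were higher and 0 lower at an adjusted p under 0.05, 1 had an unadjusted p under 0.05, 1 passed as higher with eBayes trend and robust settings, and 0 passed by the methods' t-test. After normexp correction 1 was higher and 1 lower, and 2 were higher and 1 lower in the rounded table. The list median was 0.31, against 0.25 for all genes. Without control replicate 1, and likewise without control replicate 2, 0 genes of the 5 Wnt lists passed in either direction, and of the pericentral and periportal genes described next only Cyp7a1 passed, without control replicate 1.

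Of 20 tested pericentral genes outside the 10, 5 were lower, 4 were called higher and 11 did not pass. All 4 called higher were saturated on 1 or more arrays, and after quantile normalization 9 were lower and 0 higher. The list had a median of -0.24, which is 0.49 under that of all genes. Of the 20 genes 10 were saturated on 1 or more arrays, which limits their differences. Cldn2, a claudin of pericentral hepatocytes, stood at -0.08 and -0.32 in LB1 livers, against 2.14 and 2.30 in control livers (difference -2.42, SE 0.23, limma, adjusted p = 0.020). Cyp7a1, which starts the making of bile acids from cholesterol, stood at 2.40 and 2.19 in LB1 livers, against 4.78 and 5.70 in control livers (difference -2.95, limma, adjusted p = 0.021). The other three lower genes were Ahr, Cyp3a11 and Oat, named after their values were seen. The probe of Akr1c6, a steroid dehydrogenase, reached saturation on each control array, so its difference of 1.48 (limma, adjusted p = 0.021) is an upper limit. That of Gstm3, a glutathione transferase, did so on each control array and 1 LB1 array, with a difference of 1.60 (limma, adjusted p = 0.021) that is set by those limits. Neither passed after quantile normalization or with median scaling. Cyp2e1, a pericentral cytochrome P450 that the study also measured by PCR, did not pass (difference 1.01, limma, adjusted p = 0.052) and was saturated on both control arrays as well.

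Of 21 tested genes of the opposite, periportal zone 2 were called higher, 4 were lower and 15 did not pass, with a list median of -0.13, which is 0.37 under that of all genes. After quantile normalization 0 were higher and 9 lower. Of the 21 genes 4 were saturated on 1 or more arrays, against 10 of the 20 pericentral genes. Hsd17b13, a lipid droplet enzyme, stood at 2.88 and 2.12 in LB1 livers, against 4.88 and 4.89 in control livers (difference -2.39, limma, adjusted p = 0.021). Ctsc, a lysosomal protease, differed by -1.36 (limma, adjusted p = 0.025). Uroc1, urocanase of histidine breakdown, differed by 1.12 (limma, adjusted p = 0.026) and did not pass after quantile normalization or with median scaling. Fbp1 of glucose synthesis was also called higher (limma, adjusted p = 0.024), but it was saturated on all 4 arrays and has no fold. The difference between the pericentral and periportal lists was not tested.

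**Figure D4:**
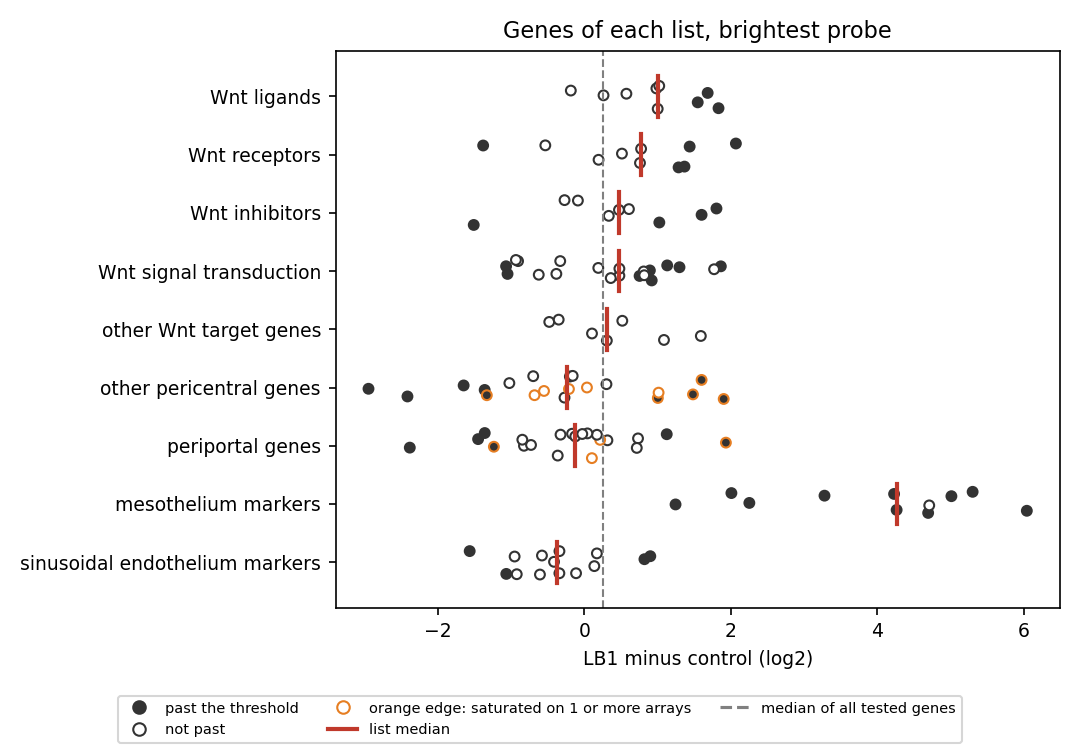
LB1 minus control difference (log2) of each tested gene in 9 lists, 1 point per gene by its brightest probe, filled where it passed the threshold and with an orange edge where the probe was saturated on 1 or more arrays. Red bars are list medians and the dashed line is the median of all tested genes, 0.25. The mesothelium markers lie farthest to the right, at 1.24 to 6.04, and the pericentral and periportal genes lie on both sides of 0.

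Markers of other cells that make or receive these ligands were counted in the same way. Of 14 sinusoidal endothelium markers 2 were higher and 2 lower, with Tek at -1.57, Fcgr2b at -1.07 (limma, adjusted p = 0.039) and Cdh5 at 0.90 (limma, adjusted p = 0.039). The Tek probe was not well above background on all 4 arrays, so no p-value is given for it. With the filter on all 4 arrays 12 markers were tested, and the lowest difference was -1.07. The summed signal of the 14 markers was 80.8 and 65.5 times the 75th percentile in LB1 livers and 79.7 and 91.1 times in control livers. With median scaling 0 of them were higher and 7 lower, after normexp correction 3 higher and 7 lower, and with the slide as a block 0 higher and 1 lower. Of 9 tested vein endothelium markers 1 was higher, Cd34 at 2.37 (limma, adjusted p = 0.028), and 1 lower, Kit, which was at least 1.47-fold lower with LB1 below background on both arrays and was called higher after normexp correction. Of all 9, 5 were higher and 2 lower after that correction and 1 higher and 3 lower with median scaling. Of 17 tested markers of stellate cells and portal fibroblasts 7 were higher and 0 lower, and their summed signal was 209 and 245 times the 75th percentile in LB1 livers, against 150 and 144 times in control livers. After normexp correction 9 of them were higher and 3 lower, and with median scaling 3 were higher and 5 lower. Of the hepatocyte markers 7 were called higher and 0 lower, all 7 saturated on 1 or more arrays. After quantile normalization 0 of these markers were higher and 4 lower, after normexp correction 7 higher and 5 lower, and with median scaling 5 higher and 3 lower. Of 6 tested cholangiocyte markers 3 were higher and 1 lower, of 6 adipocyte markers 2 were higher and 0 lower, and of 5 pancreatic acinar markers 2 were higher and 1 lower. With median scaling these counts were 2 and 2 for cholangiocyte, 1 and 1 for adipocyte and 1 and 2 for pancreatic acinar markers. Krt7 and Krt19 are on both the cholangiocyte and the mesothelium list and are counted in each. The part of these cell types in the values above was not tested.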

How the data were processed

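Each of the 4 livers was measured on 1 array. The deposited scanner files hold linear spot intensity. Feature Extraction 10.5.1.1 made it, per the file headers, with background removed and detrending within each array; the design text names another version. The deposited series table holds the mean spot intensity rounded to whole numbers (100% within 0.5 of the scanner values), without scaling. Its medians were 63.0 and 46.0 for LB1 and 74.0 and 68.0 for control arrays.

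Control spots and outlier-flagged spots were left out, log2 was taken, the 75th percentile of 43379 spots was taken off each array and repeated spots were averaged per probe. Groups were compared over all 22974 tested probes with limma 3.58.1 (lmFit, eBayes) under R 4.3.3, with Benjamini-Hochberg adjustment. Probes were named by RefSeq accession (24844), current symbol (6045) or older symbol (1810), and 8475 kept the file's name. A probe saturated or below background on both arrays of a group gives only a bound. The number of arrays limits the precision: an exact permutation test of 2 against 2 could not go below 0.333. The fit was tested on simulated data.

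The 10 genes and all lists were chosen with earlier results of these data known. The rule for named genes took all probes of the 10, Cyp2e1, up to 4 genes past the threshold with the smallest p from each pathway list, up to 3 from each marker list and the 5 genes nearest Rspo1; of the last 4 marker lists only counts are given. Replicate number, slide and scan were the same block, per the file headers. The labels themselves give the numbers no such meaning. Deviations of same-numbered arrays correlated at 0.15 across probes. Alternatives were normexp with an offset of 50, quantile normalization, array median scaling, the rounded table, other filters, trend and robust settings, the methods' t-test with 2-fold, the mean over the probes of a gene, the block and leaving out each array.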

Additional observations from a re-analysis of the deposited data

How the results depend on the processing

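Normexp correction gave 11353 probes higher and 4643 lower in all, against 4409 and 3030 in the values reported, with 5 of the 15 probes higher, 13 pericentral genes lower and 12 periportal genes lower. Quantile normalization gave 2451 probes higher in all, 0 higher and 9 lower pericentral genes, and 0 higher and 9 lower periportal genes. Array median scaling gave 1658 higher and 7126 lower in all, 5 of the 15 probes lower, 1 higher and 9 lower pericentral genes, and 1 higher and 8 lower periportal genes. The rounded table gave 10691 higher in all, 5 of the 15 probes higher, 11 pericentral and 7 periportal genes lower. With no filter 17556 of 41174 probes were higher, among them 7 of the 20 probes. The filter on all 4 arrays, the trend and robust settings and the mean over the probes of a gene each gave 4 periportal genes higher and 7 lower. The methods' t-test with 2-fold gave 2228 higher and 1881 lower in all, 1 of the 15 probes higher (Tbx3 probe 1), and 0 calls in all after Benjamini-Hochberg.

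With the replicate block, which is also the slide, 4190 probes were higher and 2767 lower in all. Of the 15 probes 3 were higher and 3 lower, as without it, but not the same ones. Pericentral genes gave 4 higher and 6 lower, and periportal genes 2 higher and 4 lower.

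Leaving out each array in turn gave 0 to 6010 probes higher and 1 to 5017 lower in all. Of the 15 probes 0 to 6 were higher and 0 to 4 lower. Pericentral genes gave 0 to 5 higher and 0 to 7 lower, and periportal genes 0 to 2 higher and 0 to 8 lower. The lowest counts came without control replicate 2. In these fits a group of 1 array is assumed to vary like the other. None of the 6 probes that passed in the reported fit changed sign under these settings. Of the tested probes that did not pass there, Axin2, Lgr4 probes 1 and 2, Znrf3, Glul probe 1 and Rhbg did. Axin2 passed as lower with median scaling (-1.75) and with the block, and was 0.29 after normexp correction. Lgr4 probe 1 was -0.78 without LB1 replicate 1 and 0.16 without LB1 replicate 2. Lgr4 probe 2, Znrf3, Rhbg and Glul probe 1 were 0.35, 0.01, 0.31 and 0.63 in the reported fit. With median scaling they were -0.29, -0.62, -0.33 and -0.0045. Where counts moved, the cause was not tested. Dim signals limit Rspo3, Axin2, Lgr4 probe 3 and the Wnt ligands most.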
